A study of Homo sapiens with 8 samples.

Results

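The genes described here are 10 chemokines that attract lymphocytes and monocytes: CXCL9, CXCL10, CXCL11, CXCL14, CXCL16, CX3CL1, CCL2, CCL5, CCL20 and CCL28. They were taken by symbol from the 59050 gene rows of each count file, and all 10 were found. RNA was sequenced from xenografts, tumours grown in mice, of the human lung cancer line H2122, which is long established. The parental group (genotype WT, vehicle, n = 4) was compared with the SMARCA4 knockout group (genotype SMARCA4 KO, vehicle, n = 4), so all 8 tumours shared the vehicle. SMARCA4 is the gene of a motor subunit of SWI/SNF, a complex that moves nucleosomes, and the title of the series names STING, a sensor pathway for cytosolic DNA, and immunity against tumours. Values below are given in the order of replicates 1 to 4 of each group. The labels give neither the host strain, nor how many clones the knockout cells came from, nor whether each tumour came from its own animal, so p-values measure the spread between these samples.

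Chemokines are small secreted or membrane-tethered proteins that direct leukocytes through G-protein-coupled receptors. CXCL9, CXCL10 and CXCL11 are classically induced by interferon and bind CXCR3 on activated T cells and natural killer cells, while CCL2 draws monocytes through CCR2 and CCL5 draws T cells and monocytes. CXCL16 and CX3CL1 are made as transmembrane proteins that bind CXCR6 and CX3CR1 and can be shed by ADAM proteases. CXCL14, CCL20 and CCL28 are made by many epithelia, where CCL20 attracts CCR6-bearing cells and CCL28 attracts CCR10-bearing cells.

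Sequence upstream of the RefSeq start sites is shown for the 3 interferon-induced CXCR3 ligands, which lie close together on chromosome 4, and for CCL20, the member called higher in knockout tumours. RefSeq (GRCh38.p14) gave promoters for 6 of the 10 members. Windows of 250 bases before the start were searched on both strands for the interferon-stimulated response element core (GAAA, any 2 bases, then GAAA again), the gamma-activated site TTCNNNGAA, the AP-1 motif TGANTCA and the NF-kappaB motif, and no match of 1 motif overlapped that of another. Capitals mark the matches. The stretches are chr4:76007510-76007759 for CXCL9, chr4:76023498-76023747 for CXCL10, chr4:76036198-76036320 for CXCL11 (all minus strand) and chr2:227813592-227813821 for CCL20 (plus strand). They are written from 5′ to 3′ on the strand of the gene, and bases that GENCODE 29 places in an exon are left out.
CXCL9: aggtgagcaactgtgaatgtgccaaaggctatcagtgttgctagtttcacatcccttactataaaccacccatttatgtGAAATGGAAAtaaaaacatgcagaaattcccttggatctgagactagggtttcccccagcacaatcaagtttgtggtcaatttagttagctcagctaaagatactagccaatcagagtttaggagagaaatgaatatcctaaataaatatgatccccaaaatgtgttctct
CXCL10: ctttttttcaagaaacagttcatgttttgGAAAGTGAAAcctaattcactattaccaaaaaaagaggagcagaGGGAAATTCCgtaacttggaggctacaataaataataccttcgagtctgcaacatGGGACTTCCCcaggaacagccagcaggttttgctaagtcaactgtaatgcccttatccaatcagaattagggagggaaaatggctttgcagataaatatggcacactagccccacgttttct
CXCL11: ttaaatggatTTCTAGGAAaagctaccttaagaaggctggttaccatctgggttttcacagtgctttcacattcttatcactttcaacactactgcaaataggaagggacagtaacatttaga
CCL20: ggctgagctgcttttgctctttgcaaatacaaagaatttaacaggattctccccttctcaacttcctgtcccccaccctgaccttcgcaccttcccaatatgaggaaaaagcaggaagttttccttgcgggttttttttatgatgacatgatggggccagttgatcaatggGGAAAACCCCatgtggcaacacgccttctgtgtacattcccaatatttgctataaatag

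The CXCL10 stretch held the interferon response core GAAAGTGAAA starting 221 bases before the start site, and NF-kappaB matches at 177 and 122 bases. The CXCL9 stretch held the core GAAATGGAAA at 171 bases, and the CXCL11 stretch the gamma-activated match TTCTAGGAA at 240 bases. Nearer its start, in bases not shown, CXCL11 had an AP-1 match (TGACTCA) at 87 bases and an NF-kappaB match at 76 bases. CCL20 had an NF-kappaB match on the opposite strand at 79 bases, and CXCL14 had an AP-1 match (TGAGTCA) at 92 bases. Neither of the 2 start sites of CCL28 had a match. Over all 35116 promoters in the table, 3.02% held the interferon response core, 6.57% the gamma-activated site, 9.96% the NF-kappaB motif and 6.57% the AP-1 motif. These are matches of letters only.

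Libraries held 19785922 to 23191698 gene counts, with no separation of the groups. SMARCA4 itself was at 198 to 235 CPM (counts relative to the TMM-scaled library size, the unit of levels below) in parental and 22.3 to 31.1 CPM in knockout tumours, so no library went against its label (log2 fold change of knockout over parental -3.02, SE 0.117, adjusted p = 1.45e-07 by edgeR). The 10 epithelial tumour cell markers summed to 7145 to 8100 CPM in parental and 5466 to 7064 CPM in knockout tumours, without overlap, and all 10 had counts in every tumour. Of these, 5 were called lower in knockout tumours, among them KRT19 (log2 fold change -1.01), CLDN4 (-0.99) and KRT7 (-0.71), and none higher. Over all genes tested, 14.1% were called lower. The other 5 markers were not called, and KRT8 (0.16), KRT18 (0.11) and CDH1 (0.08) had log2 fold changes above 0. The 24 leukocyte markers summed to 28.4, 145, 117 and 19.1 CPM in parental and to 63.1, 89.4, 54.1 and 37.9 CPM in knockout tumours. Parental replicates 2 and 3 therefore stood above the other tumours on these markers. The list held 16 genes that passed the filter on low counts, 10 with a log2 fold change below 0 and 6 above, with a median of -0.29. Of these 16, GNLY and ITGAX were called higher in knockout tumours and none lower, where 27.0% of all genes tested were called. GNLY, a cytotoxic granule protein gene that mice lack, had 61 to 242 counts in parental and 236 to 679 in knockout tumours. Both calls were lost without parental replicate 1 (adjusted p = 0.0563 and 0.0665) or knockout replicate 2 (0.0637 and 0.0826). In bulk RNA, fewer cells of a type and less RNA per cell cannot be told apart. Whether mouse reads were removed is not given in the sources used here. Counts of leukocyte markers, receptors and chemokines may thus include host reads that resemble human transcripts.

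Of the 10 members, 5 passed the filter and 2 of these were called: CXCL14 was lower and CCL20 higher in knockout tumours (edgeR adjusted p under 0.05). Among all 16219 genes tested, 27.0% were called, 14.1% lower and 13.0% higher. CXCL16, CCL5 and CCL28 were not called. CXCL9, CXCL10, CXCL11 and CCL2 had counts but fell under the filter, and CX3CL1 had none. The plot of CPM by tumour shows that only CXCL14 and CXCL10 had groups without overlap, both lower in knockout tumours. Of the genes tested, such as CXCL14, 15.3% had this in that direction (29.3% in either). Of the genes with counts under the filter, such as CXCL10, 2.73% had it in that direction (5.73% in either).

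**Figure D1:**
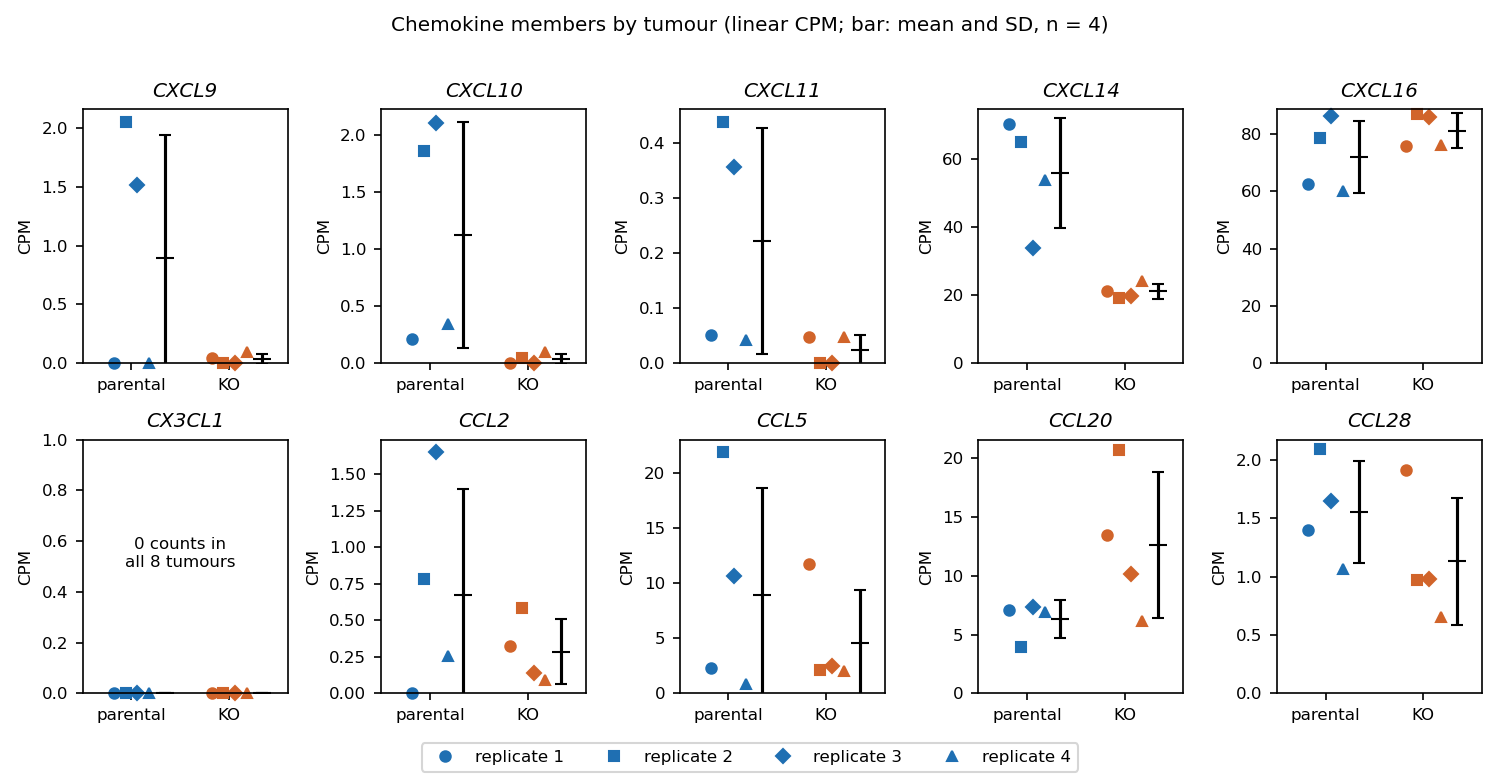
CPM of each member in the 8 tumours on linear axes, with 1 panel per gene, the marker shape giving the replicate number, and black bars for the mean and SD of the 4 tumours (lower ends cut at 0). CXCL14 lies at 34.0 to 70.4 CPM in parental and 19.1 to 24.1 CPM in knockout (KO) tumours; CXCL9, CXCL10 and CXCL11 are high in parental replicates 2 and 3.

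The ligands of CXCR3 were scarce in every tumour, and CXCL10 was lower in all knockout tumours than in any parental tumour. CXCL10 (ENSG00000169245, GENCODE 29 on GRCh38, chromosome 4, 76021117 to 76023497, minus strand) was counted 4, 38, 47 and 8 times in parental tumours and 0, 1, 0 and 2 times in knockout tumours. Every parental tumour was above every knockout tumour, and most of the parental counts came from replicates 2 and 3. At the edge the margin was narrow, with 4 counts in parental replicate 1 against 2 in knockout replicate 4. Counting error alone could give such a gap, and all knockout counts lay under the floor of 3. The pooled ratio of parental to knockout, per TMM-scaled library size, was 32.0 (exact 95% interval 10.6 to 158, and 71.7 without knockout replicate 4). Such intervals pool the counts of the 4 tumours of a group, so they cover counting error only and leave out the spread between tumours. Reads are not independent molecules either. Of the 17438 genes that had counts but fell under the filter, 5.73% had groups without overlap, 2.73% with all knockout tumours lower.

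CXCL9 (ENSG00000138755, chromosome 4, 76001275 to 76007488, minus strand) had 0, 42, 34 and 0 counts in parental and 1, 0, 0 and 2 in knockout tumours. All parental counts came from replicates 2 and 3, and replicates 1 and 4 lay no higher than the knockout tumours, so the groups overlapped. The pooled ratio was 25.1 (8.26 to 124), and 14.7 without parental replicate 2 or 56.2 without knockout replicate 4. CXCL11 (ENSG00000169248, chromosome 4, 76033682 to 76041415, minus strand) had 1, 9, 8 and 1 counts in parental and 1, 0, 0 and 1 in knockout tumours, a ratio of 9.40 (2.27 to 83.2), with the same parental tumours high. The 3 ligands together gave 5, 89, 89 and 9 counts in parental and 2, 1, 0 and 5 in knockout tumours. Exact two-sided permutation tests of CPM, 4 against 4, gave p = 0.0286 for CXCL10, the smallest p this design allows, 0.0857 for CXCL11 and 0.429 for CXCL9, unadjusted and among 4 such tests. The CXCL10 value depends on parental replicate 1 (4 counts) lying above knockout replicate 4 (2 counts).

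When all 33657 genes with at least 1 count were fitted with no filter, edgeR's quasi-likelihood test called CXCL10 (adjusted p = 3.06e-05), CXCL9 (0.00243) and CXCL11 (0.0312) lower, where 14.6% of genes were called. These fitted values rest on 2 or 3 knockout counts a gene, and for CXCL9 on parental tumours that range from 0 to 42 counts. The fit with no filter also gave adjusted p-values on another scale than the main fit. By edgeR, CXCL14 had 2.53e-08 instead of 0.000304, and CXCL16 had 0.468 instead of 0.325. Without parental replicates 2 and 3, a setting chosen after the values were seen, CXCL10 kept 12 counts against 3, a ratio of 7.92 (2.14 to 43.7), while CXCL9 was left with 0 against 3 and CXCL11 with 2 against 2 counts, too few for a ratio. The tumours high in these ligands were also the highest in leukocyte markers, and the part of those cells in the result was not tested. Whether any of these ligand and marker counts came from host reads was not tested either. Parental replicates 1 and 4 had the lowest leukocyte marker sums of all tumours (28.4 and 19.1 CPM), with 5 and 9 counts over the 3 ligands. Knockout replicate 4 (37.9 CPM) also had 5 counts, and the other knockout tumours had 0 to 2.

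**Figure D2:**
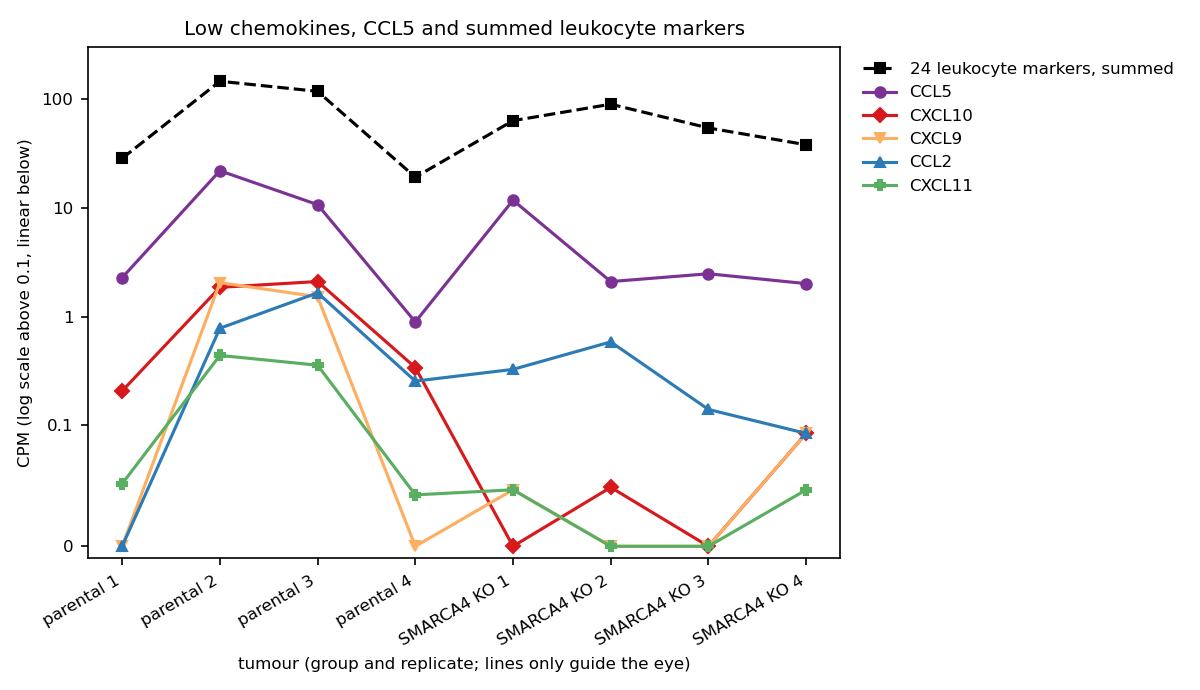
CPM (y axis; log scale above 0.1 CPM, linear below) in each tumour (x axis) of CCL5 and the 4 low members with counts, and the summed CPM of 24 leukocyte markers (dashed), with lines that only guide the eye. Parental replicates 2 and 3 are the highest tumours for the marker sum (145 and 117 CPM) and for CXCL9, CXCL10, CXCL11 and CCL2; knockout replicate 1 is at 11.7 CPM for CCL5.

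CCL5 and CCL2, which attract T cells and monocytes, varied more between tumours of a group than between the groups. CCL5 (ENSG00000271503, chromosome 17, 35871491 to 35880793, minus strand) was at 2.28, 21.9, 10.7 and 0.893 CPM in parental and at 11.7, 2.096, 2.47 and 2.01 CPM in knockout tumours. The highest parental tumour was 24.5 times the lowest, and the highest knockout tumour 5.84 times the lowest, so the groups overlapped widely. Its log2 fold change, knockout over parental, stood at -0.96 (SE 0.841; adjusted p = 0.439 by edgeR). It moved to -0.02 without parental replicate 2 and to -2.02 without knockout replicate 1, with adjusted p-values of 0.991 and 0.128. Without parental replicates 2 and 3 its sign turned, to 1.55 (adjusted p = 0.161).

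CCL2 (ENSG00000108691, chromosome 17, 34255218 to 34257203, plus strand) had 0, 16, 37 and 6 counts in parental and 7, 12, 3 and 2 in knockout tumours. The highest parental value was in replicate 3 and the lowest, 0, in replicate 1, and the groups overlapped. The pooled ratio of parental to knockout was 2.43 (95% counting interval 1.49 to 4.09), while the exact permutation test over tumours gave p = 0.400. The ratio was 1.23 (0.656 to 2.28) without parental replicate 3, 3.69 without knockout replicate 2 and 0.495 (0.165 to 1.24) without parental replicates 2 and 3.

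The transmembrane chemokines took opposite places in the range of levels. CXCL16 (ENSG00000161921, chromosome 17, 4733526 to 4739922, minus strand) was at 62.7, 78.7, 86.3 and 60.1 CPM in parental and at 75.7, 86.9, 85.9 and 76.0 CPM in knockout tumours. It was abundant in all 8 tumours, with the groups overlapping and the spread between knockout tumours only 1.15-fold. Its log2 fold change, knockout over parental, stood at 0.17 (SE 0.121; adjusted p = 0.325 by edgeR), and it reached 0.39 with a call (0.0168) only without parental replicates 2 and 3. Of its merged exons, 85 bases (3.04%) overlap MED11 on the opposite strand, and whether counting used strand is not given in the sources used here. CX3CL1 (ENSG00000006210, chromosome 16, 57372458 to 57385048, plus strand) had no count in any of the 8 libraries (0 of the gene counts), and a count of 0 allows a level of up to 3 counts a library, or 0.128 to 0.155 CPM. CX3CL1 transcripts were thus not detectable at this depth in either group, and no fold change is given.

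Among the epithelial chemokines, CXCL14 fell and CCL20 rose. CXCL14 (ENSG00000145824, chromosome 5, 135570679 to 135579279, minus strand) was at 70.4, 65.1, 34.0 and 53.8 CPM in parental and at 21.2, 19.1, 19.9 and 24.1 CPM in knockout tumours. The lowest parental tumour, replicate 3, still lay above the highest knockout tumour, and the knockout tumours were close together (21.1 ± 2.21 against 55.8 ± 16.1 CPM, SD, n = 4 each). Its log2 fold change, knockout over parental, stood at -1.40 (SE 0.194; adjusted p = 0.000304 by edgeR), a level 2.65-fold lower. It was called in every alternative run, at -1.58 to -1.28 without single tumours, -1.43 to -1.35 with the other tests, scalings and filters, and -1.57 without parental replicates 2 and 3. The epithelial marker sum was also lower in all knockout tumours, though 3 of the 10 markers had log2 fold changes above 0. The part of that sum in the CXCL14 result was not tested. The antisense neighbours whose exons overlap 95 and 78 bases of CXCL14 had 1 count over all libraries (AC034206.1) and 100 counts in each group (SLC25A48).

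CCL20 (ENSG00000115009, chromosome 2, 227805739 to 227817564, plus strand) was at 7.09, 3.95, 7.37 and 6.89 CPM in parental and at 13.5, 20.7, 10.1 and 6.16 CPM in knockout tumours. Knockout replicates 1 to 3 lay above all parental tumours, while replicate 4 lay within the parental range. Its log2 fold change, knockout over parental, stood at 0.99 (SE 0.324; adjusted p = 0.0416 by edgeR), a level 1.99-fold higher. The call stood near the threshold: leaving out any single tumour other than knockout replicate 4 ended it, with adjusted p-values of 0.0524 (knockout replicate 3), 0.0571, 0.0665, 0.0724 and 0.0800 (parental replicates 3, 4, 1 and 2), 0.0882 (knockout replicate 1) and 0.134 (knockout replicate 2), and log2 fold changes of 0.65 to 1.09. Without knockout replicate 4 it was 1.22 (0.00881). There was no call by limma-voom (0.89, adjusted p = 0.0822) or without parental replicates 2 and 3 (0.84, 0.120).

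CCL28 (ENSG00000151882, chromosome 5, 43376645 to 43412391, minus strand) had 27, 43, 37 and 25 counts in parental and 41, 20, 21 and 14 in knockout tumours, or 1.55 ± 0.437 and 1.13 ± 0.545 CPM (SD, n = 4 each). Knockout replicate 1 lay among the parental values and the other 3 knockout tumours below them. Its log2 fold change, -0.45 (SE 0.343; adjusted p = 0.367 by edgeR), was not called, and leaving out single tumours gave -0.83 to -0.26.

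**Figure D3:**
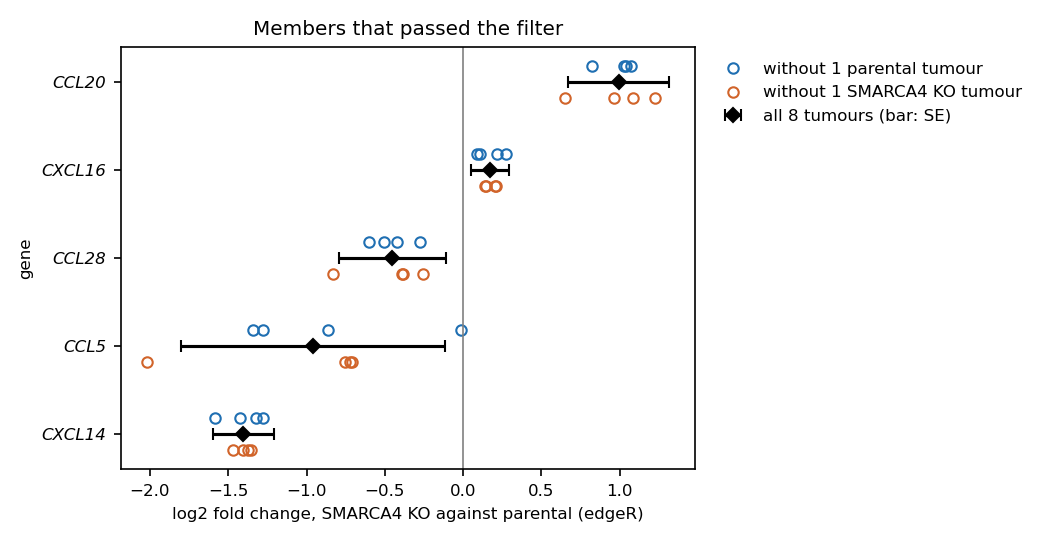
Log2 fold change (x axis) of the 5 members that passed the filter, with black diamonds and SE bars for all 8 tumours and open circles for the fits without 1 tumour. CXCL14 stays between -1.58 and -1.28, whereas CCL5 runs from -2.02 to -0.02.

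Levels of different members were compared only per length, as CPM per kilobase of merged GENCODE 29 exons. In parental tumours CXCL14 (28.3 ± 8.17) and CXCL16 (25.7 ± 4.52) led with overlapping ranges, followed at a distance by CCL5 (5.91 ± 6.38) and CCL20 (3.97 ± 1.00), which also overlapped each other. CXCL10 (0.957 ± 0.842), CCL28 (0.343 ± 0.0966), CCL2 (0.338 ± 0.367), CXCL9 (0.326 ± 0.384) and CXCL11 (0.117 ± 0.108) came next, each overlapping its neighbour in the order (SD, n = 4 for all). In knockout tumours CXCL16 (29.04 ± 2.18) led alone, since CXCL14 (10.7 ± 1.12) lay below it without overlap. CCL20 (7.91 ± 3.87) overlapped both CXCL14 and CCL5 (3.03 ± 3.16), and the other members with counts lay at 0.250 ± 0.120 (CCL28) or less. CXCL10 took place 5 in parental tumours and place 7 in knockout tumours, at 0.0302 ± 0.0382. By the length of the longest transcript CCL20 was at 7.54 in parental and 15.04 in knockout tumours, above CXCL14 there (10.7) and above the 6.54 of CCL5 in parental tumours, and CXCL16 at 32.4 came before CXCL14 (28.3) in parental tumours. The order of these neighbours thus depends on the gene model.

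**Figure D4:**
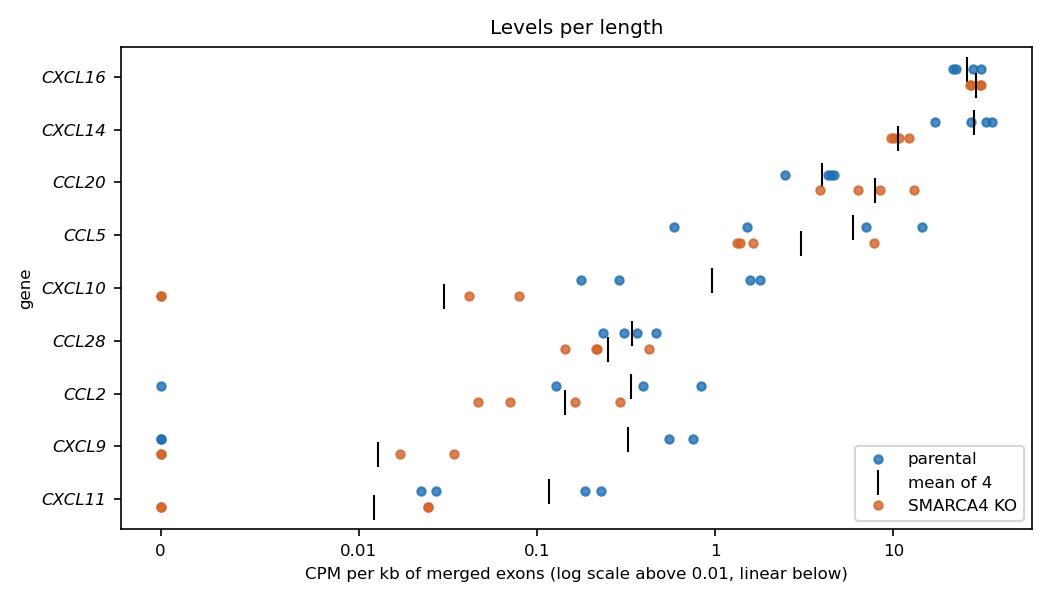
CPM per kilobase of merged exons (x axis; log scale above 0.01, linear below) of the 9 members with counts, ordered by the mean over all tumours, with 1 point per tumour and black ticks for group means. CXCL14 lies beside CXCL16 in parental tumours and below it in knockout tumours, at 10.7 against 29.04.

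Parental replicates 2 and 3 exceeded replicates 1 and 4 in 7 of the 9 members with counts: CXCL9, CXCL10, CXCL11, CXCL16, CCL2, CCL5 and CCL28. The exceptions were CXCL14 and CCL20. The same order was seen in 21 of the 24 leukocyte markers (87.5%), in 9 of the 15 receptor genes and in 2 of the 10 epithelial markers, against 22.8% of all genes tested. This count was made after the values were seen, and no test was run on it. The genes tested all passed the filter, whereas the members, receptor genes and leukocyte markers counted here include genes under it. Among leukocyte markers CD8A, a marker of cytotoxic T cells, had 12, 60, 56 and 9 counts in parental and 12, 9, 12 and 11 in knockout tumours, and CD14, a monocyte marker, had 12, 102, 104 and 10 and then 66, 75, 49 and 66 counts. Other leukocyte markers differed from gene to gene. CD3E had 130 counts over the parental and 132 over the knockout libraries, and CD2 had 145 and 52. The parental counts of both came mostly from replicates 2 and 3. CSF1R had 7, 131, 101 and 10 counts in parental and 29, 36, 19 and 4 in knockout tumours. FCGR3A had 9, 152, 136 and 1 and then 22, 3, 5 and 1 counts. ITGAM had 2, 37, 51 and 5 and then 18, 26, 28 and 19 counts. The B cell markers MS4A1 and CD79A had at most 8 counts in any tumour and 0 in several.

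Receptor genes of the members were mostly scarce. Of 15 receptor genes, all had at least 1 count and 5 passed the filter, with a median log2 fold change of 0.46 beside 0.0035 over all genes tested. Of these 5, 1 was called, where 27.0% of all genes tested were. CXCR3, the receptor of CXCL9, CXCL10 and CXCL11, had 3, 27, 20 and 0 counts in parental and 6, 6, 10 and 4 in knockout tumours. CCR2, the receptor of CCL2, had 0, 34, 32 and 4 and then 5, 3, 2 and 0 counts, so both receptors were highest in parental replicates 2 and 3. CXCR6 had 31 counts over the parental and 23 over the knockout libraries, CX3CR1 had 28 and 6, and CCR6, the receptor of CCL20, had 0 and 1. The only call was ACKR3, a scavenging receptor that binds CXCL11 and CXCL12, which rose from 9.97 ± 2.49 to 17.5 ± 5.29 CPM (SD, n = 4 each; log2 fold change 0.81, SE 0.240, edgeR adjusted p = 0.0278). That call was lost, at adjusted p-values of 0.0645 to 0.0873, without parental replicate 1 or 4 or knockout replicate 1, 2 or 3.

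Of 10 genes for proteases that shed or trim chemokines, and their regulators, all passed the filter, 2 were called higher and 1 lower, and the median log2 fold change was 0.13. The share called over all genes tested was 27.0%. ADAM10 and ADAM17, the sheddases of CXCL16 and CX3CL1, had log2 fold changes of 0.28 (adjusted p = 0.0849) and 0.25 (0.0652), not called, though upper-quartile scaling gave calls for both (0.32 and 0.28, adjusted p = 0.0416 and 0.02904), as did leaving out certain tumours. DPP4, which trims the ends of CXCL10 and related chemokines, was at 1.15 ± 0.573 and 1.16 ± 0.376 CPM (log2 fold change 0.03, SE 0.398, adjusted p = 0.966). The lysosomal protease gene CTSS fell from 42.0 ± 16.5 to 9.92 ± 2.25 CPM (-2.08, SE 0.273, adjusted p = 0.000210), and CTSL rose from 124 ± 7.69 to 223 ± 10.1 CPM (0.85, SE 0.0796, adjusted p = 2.06e-05), neither with overlap between the groups. TIMP3, an inhibitor of ADAM17, rose by 0.58 (SE 0.165, adjusted p = 0.0216), a call lost without parental replicate 1 or knockout replicate 1, 3 or 4 (0.0514 to 0.0592).

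Among 28 genes that carry interferon, STING and NF-kappaB signals to chemokine genes, all passed the filter, 3 were called higher and 2 lower, and the median log2 fold change was -0.0041. Over all genes tested, 27.0% were called, 13.0% higher and 14.1% lower. TMEM173, the symbol for STING in these files, fell from 49.8 ± 11.4 to 15.5 ± 3.66 CPM (log2 fold change -1.69, SE 0.195, adjusted p = 9.05e-05), and the kinase gene IKBKE fell by 0.79 (SE 0.172, adjusted p = 0.00558). The interferon gamma receptor gene IFNGR1 rose by 0.45 (SE 0.116, adjusted p = 0.0136). The NF-kappaB subunit genes NFKB2 (0.52, SE 0.168, adjusted p = 0.0406) and RELB (0.47, SE 0.147, 0.0353) were called higher, and both calls were lost without parental replicate 1, 3 or 4 or knockout replicate 1, 2 or 3 (0.0594 to 0.112 and 0.0710 to 0.0968). IRF1, a transcription factor of the interferon response (-0.56, adjusted p = 0.0812), was not called, and neither was the NF-kappaB subunit gene RELA (0.25, 0.0791). Both were called in some alternatives, among them IRF1 by DESeq2 (0.0415) and RELA with upper-quartile scaling (0.0435).

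Of 35 other chemokine genes in the files, 11 passed the filter, 2 were called higher and 3 lower, with a median log2 fold change of -0.12. Among all genes tested, 27.0% were called. CXCL17, an airway epithelial chemokine, fell from 27.7 ± 18.6 to 0.258 ± 0.122 CPM (log2 fold change -6.71, SE 0.687, adjusted p = 3.73e-05). PPBP, best known as a platelet chemokine, rose from 1.18 ± 0.608 to 18.6 ± 6.18 CPM (3.98, SE 0.370, adjusted p = 1.95e-05). XCL1, a chemokine of T cells and natural killer cells, had 12 counts over the parental and 74 over the knockout libraries (2.58, SE 0.478, adjusted p = 0.00212), and its near-identical copy XCL2 makes that value uncertain. The neutrophil chemokines CXCL1 (-0.61, adjusted p = 0.0393) and CXCL8 (-0.51, 0.0386) were called lower. CXCL1 lost its call without parental replicate 3 (-0.34, 0.0536) or knockout replicate 1, 3 or 4 (0.0868 to 0.102) and with upper-quartile scaling (0.0518), and CXCL8 without parental replicate 2 or 3 or knockout replicate 2, 3 or 4 (0.0652 to 0.0928). CXCL12, a stromal chemokine, had 51 and 41 counts over the groups (-0.32, adjusted p = 0.707).

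**Figure D5:**
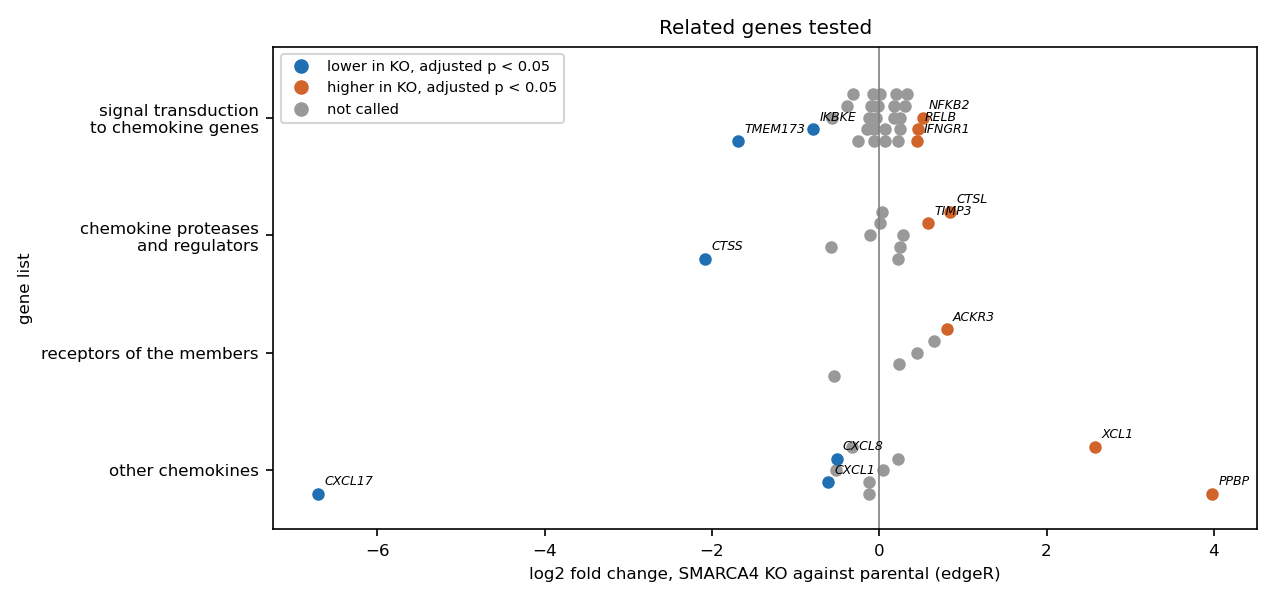
Log2 fold change (x axis) of the related genes that passed the filter, by list, coloured where the edgeR adjusted p is under 0.05 and grey otherwise; vertical offsets only separate points. CXCL17 (-6.71) and PPBP (3.98) lie farthest from 0.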

How the data were processed

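RNA-seq was analysed from 8 xenograft tumours, 4 parental and 4 SMARCA4 knockout, grouped by the sample titles. The authors deposited 1 table of raw read counts per gene symbol for each tumour, with 59050 genes and 5 summary lines. Per the submitters' processing notes, the tools were TopHat2 2.1.1 and HTSeq 0.11.0 and the build was hg38. The annotation, the strand setting and any removal of mouse reads are not given in the sources used here, so host reads that resemble human transcripts may be included. The summary lines, 14.8% to 20.9% of the HTSeq tally (gene counts plus summary lines), were left out. No 2 libraries agreed within sampling noise (chi-square per degree of freedom at least 9.13).

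Models were run in edgeR 4.0.16 (R 4.3.3). The filter was filterByExpr (minimum count 10, minimum total 15), which kept 16219 genes. After TMM scaling the groups were compared by the quasi-likelihood F-test on all 8 tumours without covariates. Genes with a Benjamini-Hochberg adjusted p under 0.05, over all genes tested, are called. Members under the filter were described by counts and pooled ratios with exact 95% intervals, with a floor of 3 counts, and by exact permutation tests. The fit was tested on simulated data. Alternatives were DESeq2 1.42.0, limma-voom (limma 3.58.1), other scalings and filters, the replicate number as a block, and leaving out each tumour. Positions and exon lengths are from GENCODE 29 (GRCh38), matched by symbol for all 10 members, and promoters are from RefSeq.

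The members and lists were chosen with earlier results of these data known. The text names all members, SMARCA4, up to 6 called genes with the smallest p in each related list, and further genes set regardless of result, of which some are not reported here. The named leukocyte and epithelial markers, CCR6 and the genes of the closing observations were named after their values were seen. Skeletal muscle markers summed to 4.04 to 46.1 CPM in parental and 2.54 to 18.7 CPM in knockout tumours, fibroblast markers to 183 to 613 and 347 to 609 CPM, and endothelial markers to 7.92 to 18.8 and 9.85 to 16.0 CPM.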

Additional observations from a re-analysis of the deposited data

Results flagged for a closer look

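In 28 sets of 4 tumours (each member with counts and each marker list in each group), the highest or lowest tumour was compared with the other 3. In 4 sets it stood apart by Dixon's test at the 95% level, where chance gives about 1 in 20. CCL5 was at 11.7 CPM in knockout replicate 1, against 2.01 to 2.47 CPM in the other knockout tumours. CCL20 was at 3.95 CPM in parental replicate 2, against 6.89 to 7.37 CPM in the other parental tumours. Endothelial markers summed to 16.0 CPM in knockout replicate 2, and skeletal muscle markers to 18.7 CPM in knockout replicate 4.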

How the results depend on the processing

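The alternatives comprised 8 on all tumours, 8 that left out 1 tumour and 1, chosen after seeing the data, without parental replicates 2 and 3. Under each of them the count of changed genes stayed within 1.5 times 4385 (3871 to 4902 on all tumours, 3501 to 4721 without 1 tumour). The number of members called, 2 here, was 1 by limma-voom and with the replicate block, 5 with no filter (1 higher, 4 lower) and 1 to 2 without 1 tumour; the higher call, CCL20, went to 0 by limma-voom, with the block (log2 fold change 0.89, adjusted p = 0.115) and without 7 of the 8 tumours (0 to 1). The replicate numbers did not pair the samples (correlations of same-numbered deviations -0.22 to 0.09, with no sample closest to its own number), and TIMP3 (adjusted p = 0.0528) was the only other named call lost with the block. Called genes over the 4 related lists numbered 14, and 8 to 16 without 1 tumour, lowest without knockout replicate 3 (8) and knockout replicate 1 (9). Of the members under the filter, 1 had groups without overlap, and 1 to 2 without 1 tumour, CXCL11 joining CXCL10 without parental replicate 4. There, parental replicate 1 and knockout replicates 1 and 4 each had 1 CXCL11 count, so only library size set them apart. Without parental replicates 2 and 3, CXCL16 was called in place of CCL20, and the sign turned for CCL5 (1.55), CXCL12 (0.15) and the CCL2 ratio (0.495). DPP4 ran from -0.26 to 0.34 without 1 tumour. CXCL10 ratios ran from 22.3 to 71.7, CXCL9 from 14.7 to 56.2 and CXCL11 from 6.50 to 14.0 without 1 tumour, with the highest CXCL9 and CXCL10 ratios without knockout replicate 4. The cause of these shifts was not tested. At this depth genes with a few counts, such as CXCL11, could not be resolved between tumours.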

Other observations

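Some of the other chemokines also differed between tumours of a group. CCL4L2, a macrophage and T cell chemokine gene with a near-identical copy in CCL4, was counted 0, 33, 25 and 0 times in parental tumours and 4, 3, 2 and 3 times in knockout tumours (replicates 1 to 4). CCL4 itself had 4, 55, 38 and 1 and then 15, 19, 17 and 17 counts, so the knockout tumours lay between the parental extremes (log2 fold change -0.52, edgeR adjusted p = 0.656). CXCL13, which attracts B cells and follicular T cells, had 0, 6, 9 and 0 and then 3, 0, 0 and 0 counts. CCL22, which attracts regulatory T cells, was present in all tumours at 65 to 163 parental and 92 to 141 knockout counts (log2 fold change 0.05, edgeR adjusted p = 0.919). XCL2 had 23 counts over the parental and 71 over the knockout libraries, the same direction as XCL1. Since these genes are near-identical copies, their counts may not be independent.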
